A study of Caenorhabditis elegans with 6 samples.

Results

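The small heat shock protein genes of *C. elegans* outside the *hsp-16* class are described here in embryos whose mothers were depleted of the DNA primase subunit gene *pri-1*. The members are the 8 genes of the deposited expression table named *hsp-43*, *hsp-17*, *hsp-25*, *sip-1*, *hsp-12.1*, *hsp-12.2*, *hsp-12.3* and *hsp-12.6*, found by symbol among 19933 genes. Both groups were embryos of the wild-type strain N2 with no mutation or transgene. Their mothers were fed from the L1 larval stage for 96 h at 20°C on bacteria carrying either the empty RNAi vector (EV) or the *pri-1* RNAi clone, and each group had 3 RNA-seq libraries of whole, mixed embryos. The study counts the libraries of a group as separate experiments. It also describes embryos of *pri-1* RNAi mothers as arresting before morphogenesis, so that RNAi and developmental stage cannot be told apart between the groups.

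Small heat shock proteins are ATP-independent chaperones built around an alpha-crystallin domain. They hold unfolding proteins in a soluble state until ATP-dependent chaperones of the HSP70 and HSP90 machines refold them. In worms the *hsp-16* genes are the classical heat-induced members, under the heat shock factor HSF-1, and several small heat shock protein genes are also targets of the insulin pathway factor DAF-16. The other members are more diverse. HSP-25 and HSP-43 are larger proteins with tissue-restricted patterns that were described as not heat-induced. SIP-1 is a chaperone of oocytes and embryos, HSP-17 can co-assemble with aggregating proteins, and the HSP-12 proteins are among the smallest of the family, with little chaperone activity in vitro.

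The values were CPM, the counts of a gene scaled so that each library adds up to 1000000, at a recovered depth of 122751270 to 162069397 reads per library. The target gene *pri-1* had 41.2, 47.2 and 26.9 CPM in EV and 28.6, 28.7 and 24.3 CPM in *pri-1* RNAi embryos, a difference that did not pass the test (log2 fold change -0.46, adjusted p = 0.285 from limma), with EV replicate 3 below *pri-1* RNAi replicates 1 and 2. The EV libraries differed widely among themselves. Principal component 2, with 30.1% of the variance, mainly parted EV replicate 2 from EV replicate 3. Summed marker levels overlapped between the groups for body wall muscle (4206 to 6613 CPM in EV and 2438 to 4814 CPM in *pri-1* RNAi embryos, 2 of 8 genes lower), pharynx (727 to 1297 and 293 to 763 CPM, 2 of 5 lower), intestine (808 to 1459.97 and 649 to 1319 CPM, with 1 of 6 higher, *end-3*, which reached 0.5 CPM only in the *pri-1* RNAi libraries) and yolk (13.03 to 782 and 16.7 to 61.3 CPM). They did not overlap for epidermis (4207 to 9141 and 1293 to 3567 CPM, 3 of 7 tested genes lower), neurons (854 to 928 and 1053 to 1269.5 CPM, 6 of 7 with a log2 fold change below 0 and 2 called lower, while *snb-1*, the most abundant, was called higher), maternal RNAs of the early embryo (75.1 to 179.8 and 245 to 356 CPM, 2 of 8 higher and 1 lower) and sperm (0.985 to 2.98 and 4.39 to 7.80 CPM, 3 of 3 tested genes higher). No marker was at 0 in every library. Most of the maternal sum in *pri-1* RNAi embryos was *mex-3*, with 233, 153 and 233 CPM, against 43.9, 30.9 and 29.3 CPM in EV. Of the 8 maternal genes, 2 were higher and 1 lower without overlap, so the sum does not stand for the list. Under the alternative fits given below, *snb-1* lost its call in 6. Of the 2 neuronal genes called lower, *snt-1* lost its call in 8 and *rab-3* in 0. Only 3 of the 8 sperm genes were tested, and their EV levels were low, with 0.717, 0.588 and 0.568 CPM for *gsp-4*. For *spe-9* they were 0.741, 0.580 and 0.241 CPM. The call was lost in 8 alternative fits for *gsp-4*, 5 for *spch-1* and 1 for *spe-9*. Beside all these marker counts stand 17.3% higher and 9.94% lower of all tested genes. In whole embryos, fewer cells of a type and less RNA per cell cannot be told apart.

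All 8 genes reached 0.5 CPM in at least 3 libraries and entered the test, limma on log2(CPM + 0.5) over 14801 genes. *hsp-12.6* did so through the 3 *pri-1* RNAi libraries and EV replicate 2. Of the 8 genes, *hsp-43* and *hsp-17* rose in *pri-1* RNAi embryos and *hsp-12.1* and *hsp-12.2* fell at an adjusted p under 0.05. *hsp-25*, *sip-1*, *hsp-12.3* and *hsp-12.6* did not pass. Over all tested genes 17.3% were called higher and 9.94% lower. On recovered reads edgeR and DESeq2 each called the same numbers of members, 2 higher and 2 lower, where edgeR called 20.2% of all genes higher and 15.5% lower and DESeq2 24% and 19.2%. The groups did not overlap for the same 4 members, and for 45.2% of all tested genes. With trimmed-mean scaling, which evens out library composition, these 4 again did not overlap, and neither did 48.2% of all tested genes. The median log2 fold change of the 8 genes was 0.33, and that of all tested genes was -0.01. The family thus held calls in opposite directions. Of the 4 called members, *hsp-43* alone kept its call in each of the 17 alternative fits. The number of members called lower was 0 when either EV replicate 1 or *pri-1* RNAi replicate 3 was left out, and 1 when *pri-1* RNAi replicate 1 or 2 was. Calls over all 14801 genes dropped in the same fits. From 1471 lower they went to 373 without EV replicate 1. Without *pri-1* RNAi replicate 1, 2 or 3 they were 465, 1121 and 273. The number of members called higher was 1 when any *pri-1* RNAi library was left out. Over all genes 1775, 2338 and 1437 were then higher, against 2564 with all libraries. The number of members stayed 2 when EV replicate 1 was left out, but with *sip-1* in place of *hsp-17* (1710 of all genes).

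**Figure D1:**
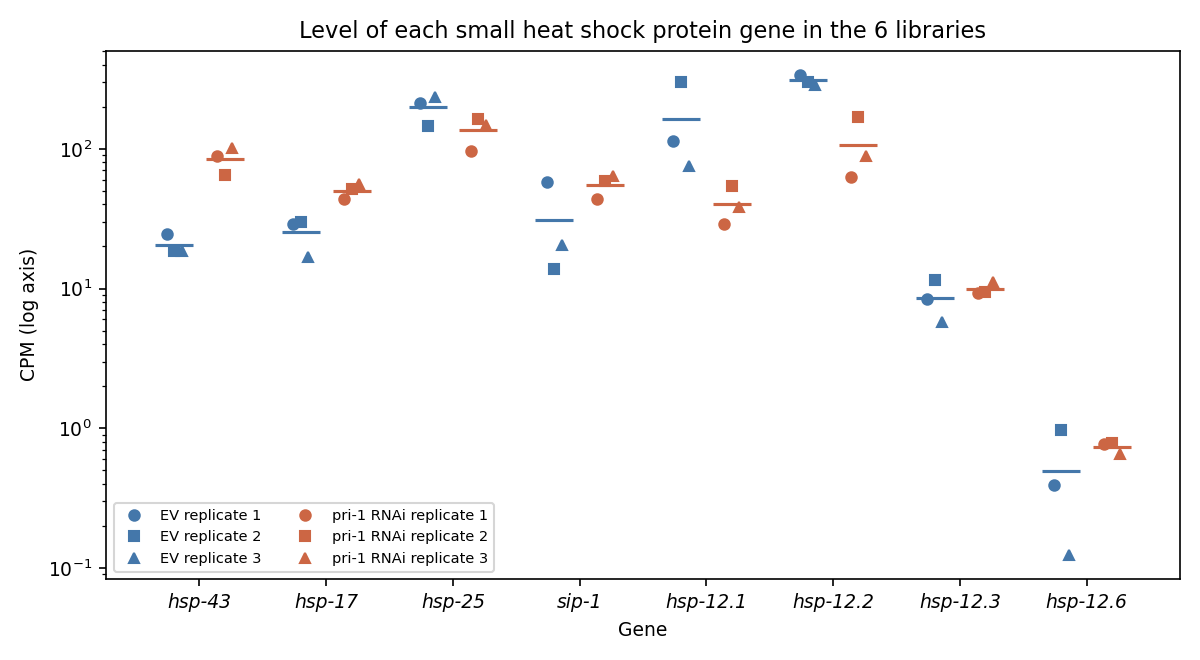
CPM of the 8 genes (x axis) on a log axis, with EV libraries in blue and *pri-1* RNAi libraries in orange. Marker shapes stand for replicates 1 to 3 and short lines for group means. The groups separate for *hsp-43* and *hsp-17* (higher in *pri-1* RNAi) and for *hsp-12.1* and *hsp-12.2* (lower), and overlap for the other 4 genes.

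*hsp-43* encodes the largest of these proteins, 393 residues in the longest annotated reading frame, and its product was described at epidermal and uterine attachment structures. The gene (WBGene00002024) lies on the minus strand of chromosome X at 6233151 to 6235543 in WBcel235, with 7 exons. Its level in replicates 1, 2 and 3 was 24.7, 18.5 and 18.5 CPM under EV, against 88.2, 64.6 and 101.6 CPM after *pri-1* RNAi. The lowest *pri-1* RNAi library was well above the highest EV library, and the replicates of each group lay close together. Means were 20.6 ± 3.58 CPM under EV and 84.8 ± 18.8 CPM after *pri-1* RNAi (SD, n = 3 each), a 4.12-fold ratio of means. The log2 fold change of 2.01 (standard error 0.27, 95% interval 1.38 to 2.63, adjusted p = 0.00213 from limma) was exceeded by 5.72% of the tested genes. The exact two-sided permutation test gave p = 0.1, the smallest value that 3 libraries against 3 allow. Trimmed-mean scaling gave 23.6, 14.6 and 26.6 CPM in EV and 76.6, 69.1 and 100.8 CPM in *pri-1* RNAi embryos, again with no overlap.

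*hsp-17* (WBGene00002021, chromosome V, 8384799 to 8385929, minus strand, 3 exons) encodes a protein of 149 residues, close in size to the HSP-16 proteins. Its level was 29.2, 29.7 and 16.8 CPM under EV, against 43.4, 51.2 and 56.1 CPM after *pri-1* RNAi. All 3 *pri-1* RNAi libraries were above all 3 EV libraries, with EV replicate 3 the lowest. Mean levels rose from 25.2 ± 7.33 to 50.2 ± 6.43 CPM (SD, n = 3 each). The log2 fold change was 1.02 (standard error 0.30, 95% interval 0.32 to 1.71, adjusted p = 0.0404 from limma, exact permutation p = 0.1), close to the threshold. It did not pass without EV replicate 1 (adjusted p = 0.0841 from limma), nor when *pri-1* RNAi replicate 1, 2 or 3 was left out (adjusted p = 0.0850, 0.105 and 0.183), while the log2 fold change stayed between 0.75 and 1.16 with each library left out. With trimmed-mean scaling the EV libraries drew together at 27.9, 23.5 and 24.1 CPM, below 37.7, 54.7 and 55.7 CPM in *pri-1* RNAi embryos. The 3′ end of *hsp-17* overlaps F52E1.14 on the other strand. *hsp-25* overlaps *ipp-5* in the same way. The library kit keeps the strand, and whether reads were assigned by strand was not checked here.

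*hsp-25* (WBGene00002023, chromosome X, 6034463 to 6039644, minus strand, 6 exons) encodes a protein of 219 residues that was described at dense bodies and M-lines, where the contractile filaments of body wall muscle are anchored. It had 214, 147 and 233 CPM in EV and 97.0, 164 and 148 CPM in *pri-1* RNAi embryos. EV replicate 2 lay among the *pri-1* RNAi libraries. The log2 fold change of -0.54 (95% interval -1.20 to 0.12, adjusted p = 0.201 from limma, exact permutation p = 0.3) did not pass the test. The body wall muscle markers had a log2 fold change below 0 in 8 of 8 genes, with a median of -0.45, and *pat-10* and *deb-1* among them were called lower, though not with trimmed-mean scaling or median centring. *unc-27*, a troponin I gene of that list, had the pattern most like *hsp-25* of 10204 genes whose mean reached 5 CPM, at a root mean square difference of 0.069 in log2 level over the 6 libraries. Both were lowest in *pri-1* RNAi replicate 1. The likeness was not particular to muscle genes, since 460 genes lay within 0.25 of *hsp-25*. *abhd-14*, which is not on the muscle list, was second at 0.070. The other muscle markers differed from *hsp-25* by 0.14 (*myo-3*) to 0.51 (*hlh-1*). The part of muscle content in the *hsp-25* values was not tested.

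*sip-1* (WBGene00004798, chromosome III, 10506106 to 10506801, minus strand, 2 exons) encodes a protein of 159 residues that is made in oocytes and embryos. It had 58.1, 13.7 and 20.6 CPM in EV and 44.0, 58.5 and 63.4 CPM in *pri-1* RNAi embryos. EV replicates 2 and 3 were below every *pri-1* RNAi library, and EV replicate 1 was at the level of the *pri-1* RNAi libraries. The highest EV library had 4.23 times the CPM of the lowest, against 1.44 times in the *pri-1* RNAi group. The log2 fold change of 1.08 (standard error 0.50, 95% interval -0.08 to 2.25, adjusted p = 0.152 from limma, exact permutation p = 0.2) did not pass. Without EV replicate 1 it was 1.67 and passed (adjusted p = 0.0289 from limma). The 3 genes most like *sip-1* over the 6 libraries were *cpr-1*, *mex-5* and *egg-5*, at root mean square differences of 0.092, 0.19 and 0.21. *mex-5*, an RNA-binding protein of early embryo polarity, was also on the list of maternal RNAs, with 22.7, 5.54 and 7.51 CPM in EV and 22.9, 20.6 and 22.1 CPM in *pri-1* RNAi embryos. EV replicate 1 was also the highest EV library for all 8 maternal RNAs and for the 6 vitellogenin genes, whose sum of 782 CPM there is the highest of the 6 libraries. Of the maternal list, *mex-3* (log2 fold change 2.55, adjusted p = 0.000911 from limma) and *oma-1* (1.73, adjusted p = 0.0494) rose and *nos-2* fell (-1.60, adjusted p = 0.0344). *mex-3* kept its call in every alternative fit, while *oma-1* and *nos-2* each lost theirs in several, among them each fit without 1 *pri-1* RNAi library. The part of embryo age in the *sip-1* values was not tested.

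**Figure D2:**
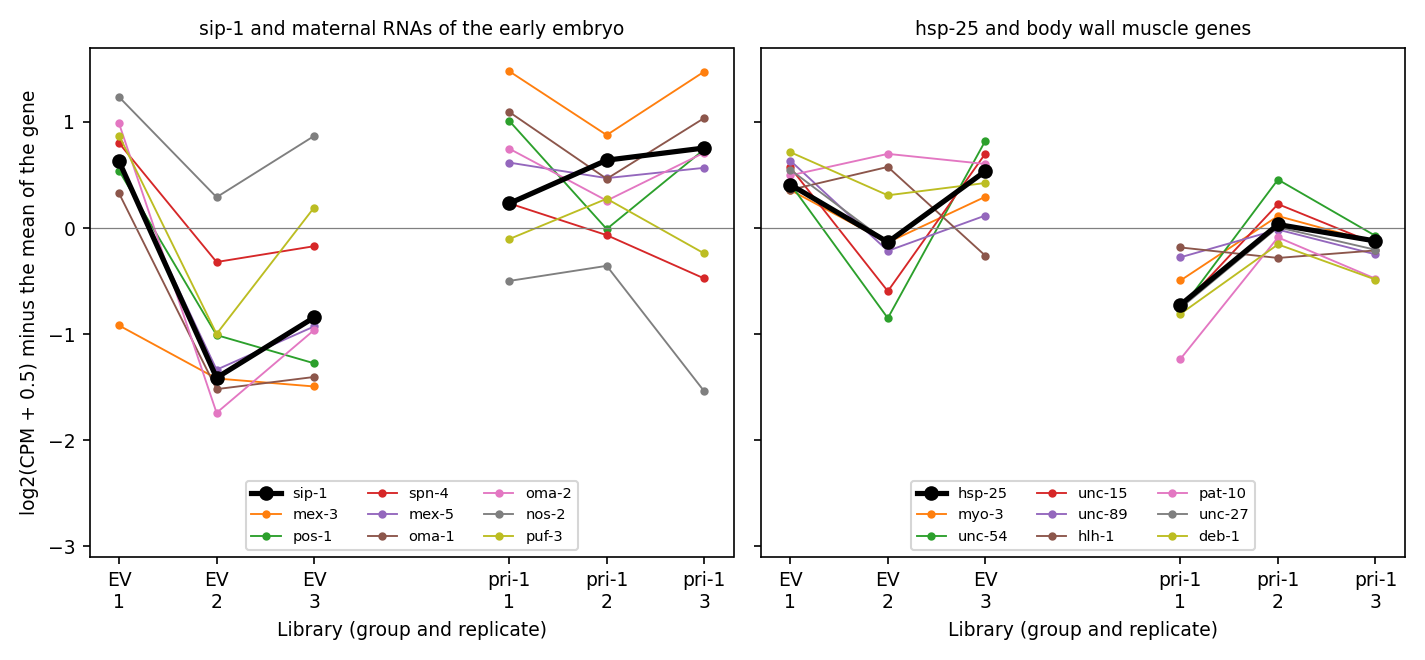
log2(CPM + 0.5) minus the mean of each gene over the 6 libraries, for *sip-1* with 8 maternal RNAs (left) and for *hsp-25* with 8 body wall muscle genes (right). Thick black lines mark the member, and lines only join the libraries of a gene, since replicates have no order. *sip-1* and *mex-5* are high in EV replicate 1 and low in EV replicates 2 and 3, and *hsp-25* runs with *unc-27*.

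The *hsp-12* genes encode proteins of 109 to 112 residues, little more than the alpha-crystallin domain, and split into an abundant pair that fell and a scarce pair that did not pass the test. *hsp-12.2* (WBGene00002011, chromosome III, 8138077 to 8139631, plus strand) had 339, 303 and 289 CPM in EV and 63.0, 168 and 88.6 CPM in *pri-1* RNAi embryos. The EV libraries were within 1.17-fold of each other, and the *pri-1* RNAi libraries, all lower, spread over 2.66-fold. Trimmed-mean scaling widened the EV group to 324, 240 and 414 CPM. The *pri-1* RNAi libraries were then at 54.7, 179 and 87.9 CPM, again with no overlap. Mean levels fell from 310.4 ± 26.0 to 106 ± 54.6 CPM (SD, n = 3 each), and the log2 fold change was -1.66 (standard error 0.35, 95% interval -2.47 to -0.85, adjusted p = 0.0117 from limma, exact permutation p = 0.1). It did not pass without EV replicate 1 (adjusted p = 0.0566 from limma), nor when *pri-1* RNAi replicate 3 was left out (adjusted p = 0.0597). The last bases of *hsp-12.2* overlap C14B9.8 on the other strand.

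*hsp-12.1* (WBGene00011906, chromosome I, 10581538 to 10582615, minus strand) had 113, 300.3 and 75.1 CPM in EV and 29.2, 54.1 and 38.6 CPM in *pri-1* RNAi embryos. Here the spread was in the EV group, where replicate 2 had 3.997 times the CPM of replicate 3, yet the lowest EV library was still above the highest *pri-1* RNAi library. Mean levels fell from 163 ± 121 to 40.6 ± 12.57 CPM (SD, n = 3 each), and the log2 fold change was -1.78 (standard error 0.50, 95% interval -2.95 to -0.62, adjusted p = 0.0343 from limma, exact permutation p = 0.1). Without EV replicate 2 it was -1.22 and passed (adjusted p = 0.0261 from limma). It did not pass without EV replicate 1 (-1.92, adjusted p = 0.0850 from limma) or without *pri-1* RNAi replicate 1, 2 or 3 (adjusted p = 0.119, 0.0567 and 0.114). With trimmed-mean scaling EV replicates 1 and 3 met at 108.2 and 107.8 CPM, with EV replicate 2 at 237 CPM and *pri-1* RNAi embryos at 25.3, 57.8 and 38.3 CPM.

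*hsp-12.3* (WBGene00002012, 9444791 to 9445507) and *hsp-12.6* (WBGene00002013, 9446229 to 9447228) are neighbours on the minus strand of chromosome IV, with 721 bases between them. *hsp-12.3* had 8.46, 11.5 and 5.71 CPM in EV and 9.28, 9.403 and 11.2 CPM in *pri-1* RNAi embryos. The groups overlapped, and the log2 fold change of 0.25 had a 95% interval from -0.58 to 1.09 (adjusted p = 0.646 from limma, exact permutation p = 0.5). *hsp-12.6*, known in adults as a DAF-16 target, was the scarcest member, with 0.391, 0.973 and 0.124 CPM in EV and 0.766, 0.784 and 0.654 CPM in *pri-1* RNAi embryos. These values stand for 19 to 127 reads per library. EV replicate 2 was the highest library and EV replicate 3 the lowest, with all *pri-1* RNAi libraries between them. Its log2 fold change was 0.40 (95% interval -0.34 to 1.13, adjusted p = 0.393 from limma, exact permutation p = 0.4), and it turned to -0.34 with quantile normalization (adjusted p = 0.270). The 2 neighbours had the most similar pattern of all pairs of members, with a root mean square difference of 0.18 in log2 level over the 6 libraries. *hsp-12.1* and *hsp-12.2* differed by 0.62 on that scale. The 0.5 added to each CPM is near the level of *hsp-12.6* itself and narrows its spread. Without it, the ratio of *hsp-12.3* to *hsp-12.6* in CPM per kb of exon ranged from 13.7 to 53.3 over the libraries. That of *hsp-12.2* to *hsp-12.1* ranged from 0.97 to 3.70. The 0.18 therefore does not show that the neighbours are the more alike pair.

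**Figure D3:**
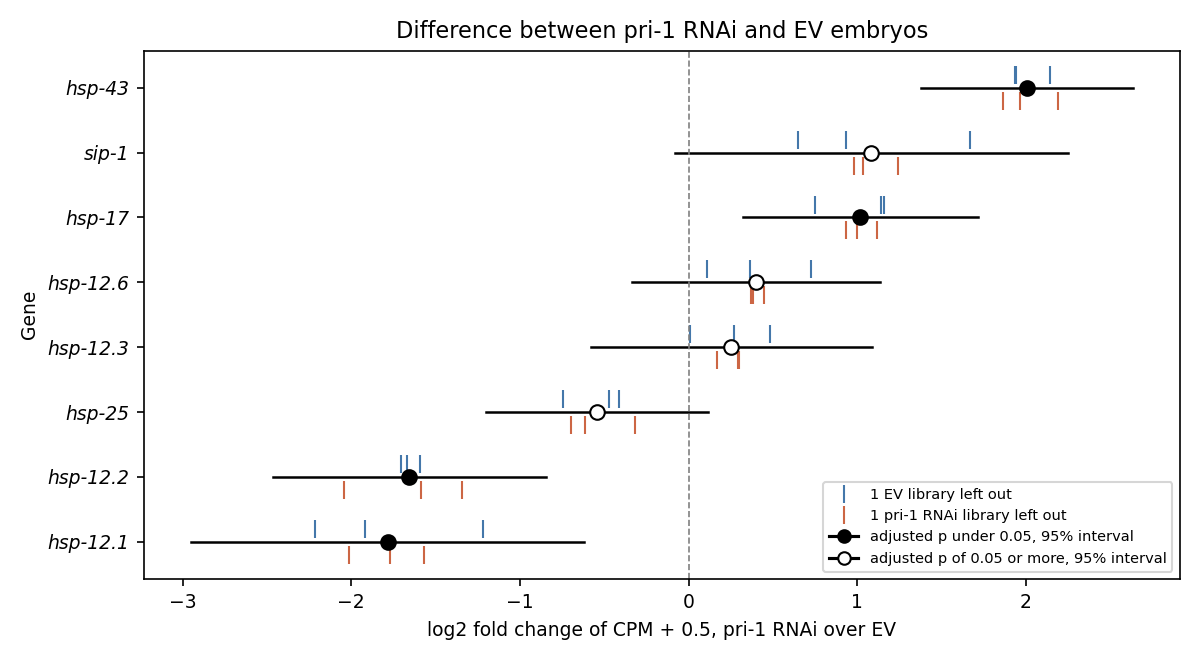
log2 fold change of CPM + 0.5 (x axis, *pri-1* RNAi over EV) for each gene, with limma's 95% interval. Filled points have an adjusted p under 0.05, and ticks are the values with 1 EV (blue) or 1 *pri-1* RNAi (orange) library left out. *hsp-43* stays between 1.86 and 2.19, and *sip-1* moves between 0.65 and 1.67 with the EV libraries.

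The differences among members can be read within each library, where scaling between libraries drops out. Levels of different genes are compared here as CPM per kb of annotated exon. The ratio of *hsp-43* to *hsp-12.2* was 0.027, 0.023 and 0.024 in EV and 0.52, 0.14 and 0.43 in *pri-1* RNAi embryos. The ratio of *hsp-12.2* to *hsp-12.3* was 51.4, 33.9 and 64.9 in EV and 8.72, 22.9 and 10.2 in *pri-1* RNAi embryos. Both ratios parted the groups without overlap (exact permutation p = 0.1 each). For the first this was settled beforehand, since *hsp-43* was higher and *hsp-12.2* lower in every *pri-1* RNAi library. The ratio of *hsp-43* to *hsp-17*, the members that rose, also parted them, with 0.34, 0.25 and 0.45 in EV and 0.82, 0.51 and 0.73 in *pri-1* RNAi embryos (exact permutation p = 0.1). The ratio of *hsp-12.2* to *hsp-12.1*, the members that fell, overlapped between the groups (exact permutation p = 0.9). A total of 8 such ratios were computed, 5 did not overlap, and none can give a p below 0.1. Among the 5, the ratio of *hsp-17* to *hsp-12.2* was also settled beforehand by the separate levels of the 2 genes.

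By mean CPM per kb, the order in EV embryos was *hsp-12.2* (599 ± 50.1, SD, n = 3), *hsp-12.1* (327 ± 242), *hsp-25* (174 ± 40.1), *sip-1* (48.1 ± 37.3), *hsp-17* (45.04 ± 13.1), *hsp-43* (14.9 ± 2.58), *hsp-12.3* (12.9 ± 4.35) and *hsp-12.6* (0.645 ± 0.564). The ranges of *hsp-12.2* and *hsp-12.1*, of *hsp-12.1* and *hsp-25*, of *sip-1* and *hsp-17* and of *hsp-43* and *hsp-12.3* overlapped, and those of the other neighbours in the order did not. In *pri-1* RNAi embryos *hsp-12.2* (206 ± 105, SD, n = 3) was still the highest by mean, followed by *hsp-25* (120 ± 30.9), *hsp-17* (89.7 ± 11.5), *sip-1* (86.4 ± 15.8), *hsp-12.1* (81.5 ± 25.2) and *hsp-43* (61.2 ± 13.5). Each of these 6 overlapped the next in range. *hsp-12.3* (14.97 ± 1.61) and *hsp-12.6* (0.955 ± 0.0916) stood apart below them.

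The 8-gene sum was 787, 824 and 659 CPM in EV and 375, 571 and 508 CPM in *pri-1* RNAi embryos. It was thus lower in each *pri-1* RNAi library than in any EV library. The sum is weighted to the abundant *hsp-12.2*, *hsp-25* and *hsp-12.1*, while 5 of the 8 members had a log2 fold change above 0. Of the summed CPM per kb, the *hsp-12* genes held 71.9%, 84.8% and 71.8% in EV and 39.8%, 54.4% and 39.8% in *pri-1* RNAi embryos. The share of *hsp-43* went from 0.937% to 1.43% in EV to 5.67% to 12.98% in *pri-1* RNAi embryos, and that of *hsp-17* from 2.998% to 4.19% under EV to 11.1% to 15.8%. The share of *sip-1* was 1.51% to 7.29% in EV and 11.1% to 14.8% in *pri-1* RNAi embryos. A larger share need not be a higher level, since the summed CPM per kb itself was 1222 ± 214 in EV and 661 ± 166 in *pri-1* RNAi embryos (SD, n = 3 each). The share of *hsp-12.3* also went from 0.861% to 1.21% in EV to 1.72% to 2.84%. The CPM of *sip-1* and of *hsp-12.3* overlapped between the groups. *hsp-25* held 9.08% to 20.6% in EV and 17.4% to 19.5% in *pri-1* RNAi embryos, a range inside that of EV.

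**Figure D4:**
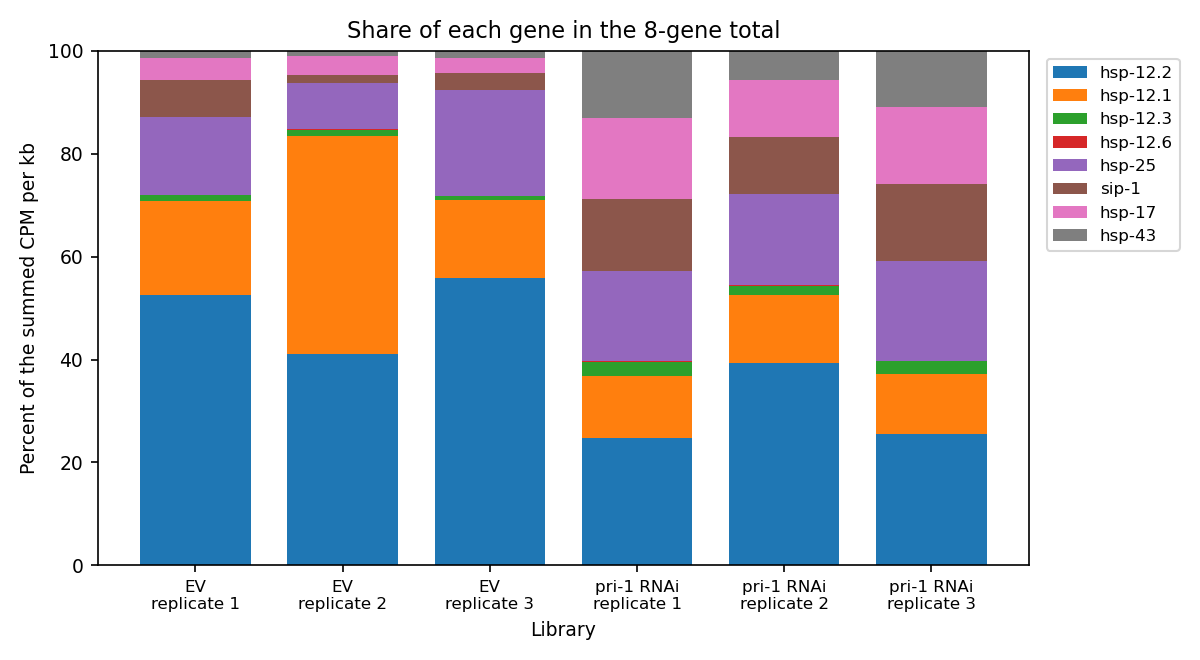
Share of each gene in the summed CPM per kb of the 8 genes (y axis, percent) in each library (x axis). *hsp-12.1* and *hsp-12.2* make up most of the total in the 3 EV libraries, and *hsp-43*, *hsp-17* and *sip-1* take larger shares in the 3 *pri-1* RNAi libraries. The total is smaller there, so a larger share need not be a higher level.

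Genes with the most similar pattern to the members that were called are given as a description, since many genes separate the groups. Within a root mean square difference of 0.25 of *hsp-43* were 81 genes, led by *pid-4* (0.058), T13C5.6 (0.10) and C29F9.6 (0.10). *crm-1* was second for *hsp-17* (0.10), after ZK742.7 (0.091), and F37B12.1 was next (0.12). *hsp-12.2* was closest to *cpg-7* (0.093), a gene of chondroitin proteoglycans, to C15H9.9 (0.11) and to K09B3.1 (0.11). *hsp-12.1*, with its high EV replicate 2, had 17 genes within 0.25, led by *oig-1* (0.14), Y92H12BL.5 (0.16) and *nhx-9* (0.16). *hsp-12.3* and *hsp-12.6*, which differed little between groups, had 582 and 331 genes within 0.25, led by *nhr-50* and *efk-1*, and the next for *hsp-12.3* were Y73E7A.1 and *dlc-5* and for *hsp-12.6* *clec-264* and *glod-4*. The next for *hsp-25* after *unc-27* were *abhd-14* and *osm-7*.

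The rest of the family, its regulators and other chaperones were read from lists. Of 9 tested family genes outside the 8, 0 were called higher and 1 lower by limma (1 higher and 2 lower at an unadjusted p under 0.05), with a median log2 fold change of 0.33. The limma shares of all 14801 tested genes were 17.3% higher and 9.94% lower. At an unadjusted p under 0.05, 3375 of them were higher and 2477 lower. edgeR called 0 higher and 1 lower, and DESeq2 called 1 higher and 1 lower. The gene called lower by limma was Y55F3BR.6 (log2 fold change -1.15, adjusted p = 0.0472 from limma), to which the annotation used here gives no role. Its call was lost in 9 alternatives, among them each fit that left out EV replicate 1, EV replicate 2 or a *pri-1* RNAi library. The 5 *hsp-16* genes of the table, which include near-identical copies that can share reads, summed to 3362, 9129.6 and 1062 CPM in EV and 3253, 3883 and 3069 CPM in *pri-1* RNAi embryos, so that EV replicates 2 and 3 enclosed all other libraries, as they did for *hsp-12.6*. F08H9.3, named *hsp-16.20* in RefSeq, had 2.16, 2.03 and 0.594 CPM in EV and 5.56, 3.05 and 2.98 CPM in *pri-1* RNAi embryos (adjusted p = 0.103 from limma).

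Of 12 regulators, 0 were called higher and 1 lower by limma (1 higher and 2 lower at an unadjusted p under 0.05), and edgeR and DESeq2 each called 0 higher and 1 lower. Among all 14801 tested genes limma called 17.3% higher and 9.94% lower (3375 and 2477 genes at an unadjusted p under 0.05). The median log2 fold change was -0.04. *hsb-1*, whose product binds HSF-1 and restrains it, had 131, 131 and 103.7 CPM in EV and 63.7, 68.4 and 59.5 CPM in *pri-1* RNAi embryos, with no overlap (log2 fold change -0.92, adjusted p = 0.0151 from limma). It was not called with median centring, which moved the median of all genes by 0.21, nor without EV replicate 1, *pri-1* RNAi replicate 1 or *pri-1* RNAi replicate 3. *hsf-1* itself had 113, 105 and 91.7 CPM in EV and 99.8, 109.9 and 106 CPM in *pri-1* RNAi embryos, and its log2 fold change of 0.03 was smaller than the replicate spread (limma, adjusted p = 0.926). *daf-16* had 156, 98.7 and 117 CPM in EV and 80.7, 87.5 and 82.7 CPM in *pri-1* RNAi embryos and did not pass (log2 fold change -0.54, adjusted p = 0.124 from limma), although the groups did not overlap.

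Of 13 ATP-dependent partners, which take over proteins held by small heat shock proteins, 4 were higher and 1 lower, with a median log2 fold change of 0.56. Over all tested genes limma called 17.3% higher and 9.94% lower. Those that rose were *hsp-4*, *hsp-70*, *hsp-110* and *hsp-90*. *hsp-4* kept its call in every alternative fit, and *hsp-70* lost its call when any *pri-1* RNAi library was left out. *hsp-110* lost its call in 10 alternatives and *hsp-90* in 6, both with trimmed-mean scaling, median centring, edgeR and DESeq2 among them. The number called higher was 2 with trimmed-mean scaling (18.5% of all genes), with edgeR (20.2%) and with DESeq2 (24%). It was also 2 without EV replicate 1, *pri-1* RNAi replicate 1 or *pri-1* RNAi replicate 2 (1710, 1775 and 2338 of all genes). It was 1 when *pri-1* RNAi replicate 3 was left out (1437 of all genes). *unc-45*, a myosin chaperone, fell from 212 ± 34.1 to 107 ± 20.9 CPM (SD, n = 3 each), or by 0.99 on the log2 scale (limma, adjusted p = 0.0171). It lost its call with median centring and without EV replicate 1, *pri-1* RNAi replicate 1 or *pri-1* RNAi replicate 3. *hsp-1*, the constitutive HSP70, had 2449, 1414 and 2796 CPM in EV and 3199.7, 5262 and 4552 CPM in *pri-1* RNAi embryos, and did not pass (log2 fold change 0.99, adjusted p = 0.0578 from limma).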

How the data were processed

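Whole-embryo RNA-seq of 3 EV and 3 *pri-1* RNAi samples was used. According to the methods and processing notes, reads were trimmed with Trimmomatic 0.36, quantified with Salmon 1.4.0 against the Ensembl transcriptome of WBcel235 and summed into genes with tximport. The authors deposited CPM values, with columns that add up to 1000000. Low values were whole multiples of 1 read: 93.6% to 95.0% of values up to 20 reads, and 91.1% to 92.5% of all values above 0, lay within 0.02 of a whole read, although the smallest values of EV replicate 3 and *pri-1* RNAi replicate 3 were not whole reads. Recovered reads, rounded, were used only in edgeR and DESeq2.

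The main test was limma 3.58.1 (lmFit, eBayes with a trend; R 4.3.3) on log2(CPM + 0.5) for genes reaching 0.5 CPM in 3 or more libraries, with Benjamini-Hochberg adjustment over all of them, no covariate and a threshold of 0.05. Fold changes are on this scale, which understates changes of low genes. The study used edgeR's quasi-likelihood test, and its covariates, if any, are not given in the sources used here. edgeR 4.0.16 and DESeq2 1.42.0, with more than 10 recovered reads in at least 3 libraries, were alternatives here and called 3599 higher and 2760 lower, and 4255 higher and 3414 lower genes. The other alternatives were pseudocounts of 0.1 and 1, no filter, a mean of at least 5 CPM, 3 other scalings, 2 blocks, each library left out and a threshold of 0.01.

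Genes are named by rule: the 8 members, *pri-1*, list members called or given for a value, and the 3 genes of most similar pattern for each member (the smallest root mean square difference of gene-centred log2 levels, mean of at least 5 CPM). *snb-1* and other markers are named from the marker lists. The members and lists were chosen with earlier results of these data known. *hsp-16.49*, on the lists, and the marker *opt-2* are not names in the table and were not analysed here. *daf-21*, also on the lists, is an older name of *hsp-90*, and the gene was analysed as *hsp-90*. Coordinates, exon lengths and reading frames come from Ensembl release 115, in which 95.8% of the symbols were found. The planned comparison of promoter motifs and protein sequences was not run, since no sequences were used here. Python 3.11.15, numpy 2.4.6, pandas 2.3.3 and matplotlib 3.10.9 were used.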

Additional observations from a re-analysis of the deposited data

How the results depend on the processing

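Of 135 values of the 8 log2 fold changes under the alternatives, 12 lost a call, 3 gained one, 1 reversed and the others kept direction and side of the threshold. The reversed value was that of *hsp-12.6*, -0.34 with quantile normalization. The cause was not tested. The 2 members called higher became 1 when a mean of 5 CPM was required (*hsp-17*, adjusted p = 0.0507 from limma), with the replicate numbers as a block and at a threshold of 0.01, where 0 were lower. With each library left out, 1 to 2 were higher and 0 to 2 lower.

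Over all genes, 2564 were higher and 1471 lower. The higher count was 1059 with a mean of at least 5 CPM, 4255 with DESeq2 and 1515 at a threshold of 0.01, and 1437 to 2853 with each library left out. The lower count was 2552 with quantile normalization, 2760 with edgeR, 3414 with DESeq2 and 358 at a threshold of 0.01, and 273 to 2993 with each library left out. Higher genes were 63.5% of all calls, and 49.2% with quantile normalization.

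The labels do not say that a replicate number shared by the groups marks a common origin. The deviations of same-numbered libraries from their group means correlated at 0.040, -0.32 and 0.46, and EV replicate 2 correlated best with *pri-1* RNAi replicate 1, so no pairing was assumed. With the replicate number as a block, 2110 genes were higher and 1043 lower, and *hsp-17* did not pass (log2 fold change 1.02, adjusted p = 0.0829 from limma). This block changed the call of no other member. The library numbers in the labels pair the libraries differently from the replicate numbers. The groups share only 2 of them, so EV replicate 2 and *pri-1* RNAi replicate 3 add nothing to the difference and 1 residual degree of freedom is left. With this block, 4159 genes were higher, and *hsp-12.6* (0.77, adjusted p = 0.0293) passed as higher and *hsp-25* (-0.82, adjusted p = 0.00282) as lower. For *hsp-12.6*, 19 to 127 reads per library limit the precision.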
